A study of Zea mays with 18 samples.

Results

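Roots of the maize line zmnrl1-m were compared with roots of the inbred line B73 at high nitrate. The comparison takes in 6 of the 18 RNA-seq libraries of the series, 3 of each genotype, chosen by the genotype and nitrate treatment in their labels, and 27134 of the 41632 genes of the count table were expressed enough to be tested. All plants were 10-day-old seedlings held for 48 h in modified Hoagland solution, with 15 mM nitrate for these 6 libraries and 0.15 mM for the low-nitrate libraries drawn on below. B73 is the control, and zmnrl1-m is labelled a mutant. The third genotype, ZmNRL1-OE, is labelled an overexpression line with no promoter given. Its 6 libraries, 3 at each nitrate level, enter the model fit and are used below for gene lists and levels. The sources used here do not give the allele of zmnrl1-m, the line it arose in or any backcrosses to B73. Whether each repeat was grown independently is not labelled, and p-values therefore speak for the spread among these libraries, part of which may be technical. The root is sampled in bulk, so fewer cells of a type and less RNA per cell cannot be told apart.

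Nitrate is both the main nitrogen source of maize roots and a signal. It is taken up by transporters in the root surface, reduced to ammonium and built into amino acids, and its supply resets the transcription of many root genes. The series title describes ZmNRL1 as a protein with DUF630 and DUF632 domains and places it in the response to nitrogen stress. In Arabidopsis, a protein with this pair of domains, NRG2, acts in nitrate signalling upstream of nitrate-responsive genes. The comparison asks how the root transcriptome of the mutant differs from that of the control when nitrate is ample.

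Genes appear by the identifiers of the B73 RefGen_v4 gene set. No name is paired with an identifier in the tables, and 0 of the identifiers occur in the RefSeq gene table at hand, so ZmNRL1 itself, pathway lists and root markers were not analysed here. Total read counts were 39003607, 33492510 and 33621379 in the B73 libraries and 27485607, 32749868 and 21905877 in those of zmnrl1-m, and the 10 most abundant genes held 2.36% to 3.12% of them. Correlations of log2 CPM (read counts scaled to a common depth with TMM factors) across genes were 0.984 to 0.991 within B73, 0.988 to 0.990 within zmnrl1-m and 0.876 to 0.887 between the genotypes. These correlations describe the libraries, since genes do not replicate one another.

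One library stood apart within its group. In B73 replicate 1, 38 tested genes reached at least 1 CPM while replicates 2 and 3 had 0 counts of them, with levels of up to 50.3 CPM. The same count was 0 for B73 replicate 2, 1 for B73 replicate 3 and 0 for each zmnrl1-m library. Of these 38 genes, 17 were also found in this way in the low-nitrate B73 library with the same number. In that library 24 of the 38 reached 1 CPM, and 24 also averaged at least 1 CPM in zmnrl1-m. Such a level is common, since only 3559 of the 27134 tested genes averaged under 1 CPM over the 18 libraries. They lay in 37 of the 542 windows of successive genes described below, with at most 2 in one window. A second set of 26 genes was chosen at low nitrate, at 20 CPM or more in zmnrl1-m and at most 3 counts over B73 replicates 2 and 3. At high nitrate they summed to 60.3 CPM in B73 replicate 1, 4.96% of the zmnrl1-m level, and to 0.706 and 0.489 CPM in replicates 2 and 3. Only 16 of the 26 genes had a count in replicate 1, and 8 in each of replicates 2 and 3. The sum therefore does not hold gene by gene. The mirror set of 42 genes high in B73 summed to 0.725 to 0.933 CPM in the zmnrl1-m libraries, at most 0.0438% of the B73 level. Of these 42, 17, 14 and 13 had a count in zmnrl1-m replicates 1, 2 and 3. The main counts are therefore given without B73 replicate 1 as well.

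The 2 genotypes differed in a large part of the root transcriptome. Of the 27134 genes, 11496 (42.4%) were called, which means an adjusted p under 0.05 in edgeR's quasi-likelihood test over all 18 libraries. In zmnrl1-m 5864 genes (21.6%) were higher and 5632 (20.8%) lower. Without B73 replicate 1 the numbers were 5407 and 5112. The median log2 fold change of all tested genes was -0.00277, with 5th and 95th percentiles of -1.80 and 2.15.

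Most of the called differences were small. Under a 2-fold limit there were 6774 called genes, 58.9% of all calls, split into 3391 higher and 3383 lower in zmnrl1-m. At least 2-fold apart were 4722 genes (17.4% of those tested), 2473 higher (9.11%) and 2249 lower (8.29%). At least 8-fold apart were 999 higher and 732 lower genes, and at least 32-fold apart 631 higher and 441 lower. The 2 directions were thus nearly even among small differences, and more genes were higher than lower in each larger class. The count of genes at least 2-fold apart was 4717 without B73 replicate 1, and 2531 on the log2(FPKM + 1) scale, where the added 1 shrinks the fold change of low genes.

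Large differences were found mainly in weakly expressed genes, while the share of called genes hardly changed with abundance. Among 3559 genes with a mean under 1 CPM over the 18 libraries, 45.1% were called and 43.8% were at least 2-fold apart. Among 4604 genes at 1 to 5 CPM the shares were 44.1% and 29.3%, and among 7362 genes at 5 to 20 CPM they were 42.9% and 14.7%. Of 9532 genes at 20 to 100 CPM, 40.2% were called and 6.62% were at least 2-fold apart. Of 2077 genes at 100 CPM and over, 41.6% were called and 4.96% were at least 2-fold apart. The share at least 8-fold apart went from 24.5% in the weakest class to 0.481% in the strongest. Called differences under 2-fold went the other way, with 1.29% of the genes under 1 CPM and 36.7% of those at 100 CPM and over. A gene nearly absent from one genotype has its mean over the 18 libraries lowered, and passes the filter through the groups that express it. At few counts a small difference can hardly be called. How far these points shape the trend was not tested.

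**Figure D1:**
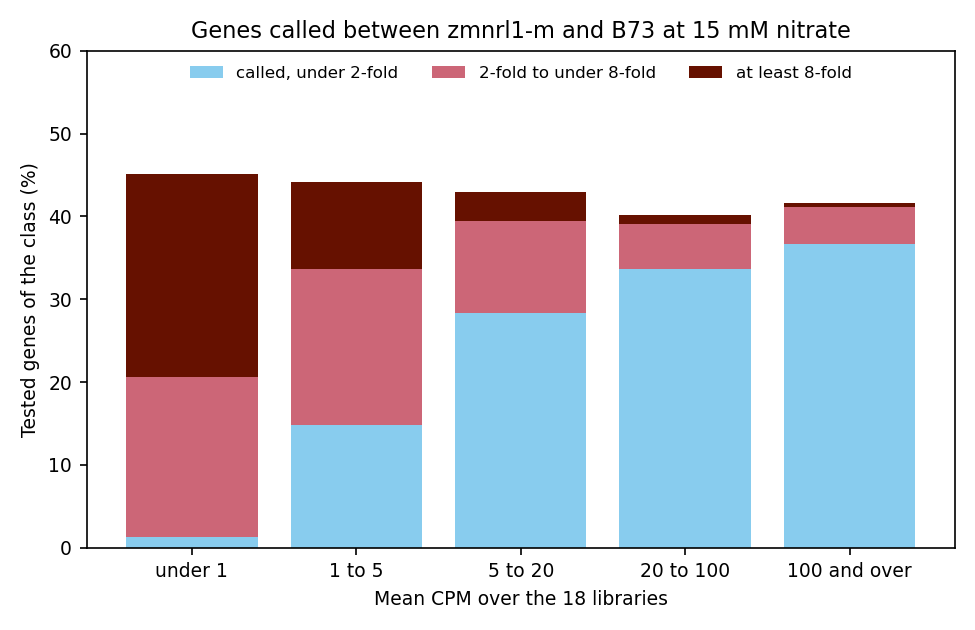
Share of tested genes called between zmnrl1-m and B73 at 15 mM nitrate (y axis, percent) in 5 classes of mean CPM over the 18 libraries (x axis), stacked by size of the difference. Total bar height stays between 40.2% and 45.1%, while the part at least 2-fold apart falls from 43.8% to 4.96%.

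The weight of the large differences in the RNA pool was modest. Genes at least 2-fold higher in zmnrl1-m held 1.64%, 1.38% and 1.60% of all CPM in the B73 libraries and 4.75%, 5.12% and 5.05% in those of zmnrl1-m. Genes at least 2-fold lower held 4.31%, 4.03% and 4.17% in B73 and 1.14%, 1.17% and 1.11% in zmnrl1-m. These shares follow from how the genes were chosen and describe how much of the RNA they make up.

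The most abundant root transcripts were called about as often as other genes. The 100 genes with the highest mean FPKM, a level per gene length, were taken from the low-nitrate libraries of both genotypes, which the high-nitrate comparison does not use. At high nitrate 22 of them were higher in zmnrl1-m, 16 were lower and 62 were not called, against 21.6% and 20.8% of all tested genes. Their median log2 fold change was 0.04 beside -0.00277 over all genes. At least 2-fold apart were 6 of the 100, 5 higher and 1 lower, beside 17.4% of all tested genes and 4.96% of those at 100 CPM and over.

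One of the 100 genes was nearly absent from B73 and entered the list through zmnrl1-m alone, with a mean FPKM of 1440 there and 1.6 in B73 at low nitrate. Zm00001d050635, named after its values were seen, stood at 753, 860 and 778 CPM in the zmnrl1-m libraries and at 1.54, 0.0614 and 0.0917 CPM in those of B73. Its 65 counts in B73 included 60 from replicate 1, the library that stood apart. The log2 fold change was 10.34 ± 0.75 (SE; edgeR adjusted p = 9.77e-09) and 13.27 without B73 replicate 1. In FPKM it averaged 1500 in zmnrl1-m and 1.09 in B73 at high nitrate. At low nitrate, where it was chosen by its level, it stood at 767 ± 51.1 CPM in zmnrl1-m and at 0.817 ± 1.11 CPM in B73 (SD, n = 3). Of its 58 B73 counts at low nitrate, 47 came from replicate 1. In the overexpression line ZmNRL1-OE at high nitrate it had 9, 18 and 3 counts, close to the B73 level.

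Between zmnrl1-m and B73 at high nitrate, the genes furthest apart had counts in a single genotype of the pair. Zm00001d049253 had 2441, 3328 and 1992 counts in the zmnrl1-m libraries at high nitrate, or 90.7, 105 and 93.0 CPM, and 0 counts in all 3 of B73. Zm00001d024014 had 1073, 1586 and 718 counts in zmnrl1-m, or 39.9, 50 and 33.5 CPM, and again 0 in B73. The groups did not overlap for either gene, which the rule for choosing them required, and the spread within zmnrl1-m was small beside the gap. Against a floor of 3 counts over the 3 B73 libraries they were at least 3350-fold and 1430-fold higher in zmnrl1-m (edgeR adjusted p = 9.36e-10 and 2.16e-09).

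In the other direction, Zm00001d008523 had 4644, 5675 and 2507 counts in the B73 libraries, or 119, 174 and 76.6 CPM, and 0 in all 3 of zmnrl1-m. Zm00001d024744 had 3282, 3007 and 3049 counts in B73, or 84.1, 92.3 and 93.2 CPM, and 0 in zmnrl1-m. The B73 libraries were close together for the second gene and wider apart for the first. They were at least 3290-fold and 2400-fold lower in zmnrl1-m (edgeR adjusted p = 4.13e-08 and 7.58e-12). Per gene length, Zm00001d008523 was the more abundant in B73, with a mean FPKM of 411 against 18.7.

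These 4 genes kept their pattern in the low-nitrate libraries. Zm00001d024744 had 0 counts in all 3 zmnrl1-m libraries there and 84.9 ± 6.74 CPM in B73, and Zm00001d024014 had 0 counts in B73 and 20.1 ± 6.81 CPM in zmnrl1-m (SD, n = 3). Zm00001d008523 had 0, 0 and 1 counts in zmnrl1-m beside 70.5, 26.9 and 22.7 CPM in B73. Zm00001d049253 had 11, 1 and 0 counts in B73 beside 78.2, 80.6 and 59.1 CPM in zmnrl1-m, so its B73 counts again came mostly from replicate 1.

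ZmNRL1-OE resembled a different genotype from gene to gene. At high nitrate it stood at 37.0 ± 6.29 CPM for Zm00001d024014, near the zmnrl1-m level, and at 106 ± 19.0 CPM for Zm00001d008523, near the B73 level (SD, n = 3). Zm00001d024744 had 2, 1 and 0 counts there, as few as in zmnrl1-m, and Zm00001d049253 had 0, 2 and 0, as few as in B73. Any comparison of the 2 lines with B73 shares its B73 libraries, so these levels are given side by side and were not tested together.

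**Figure D2:**
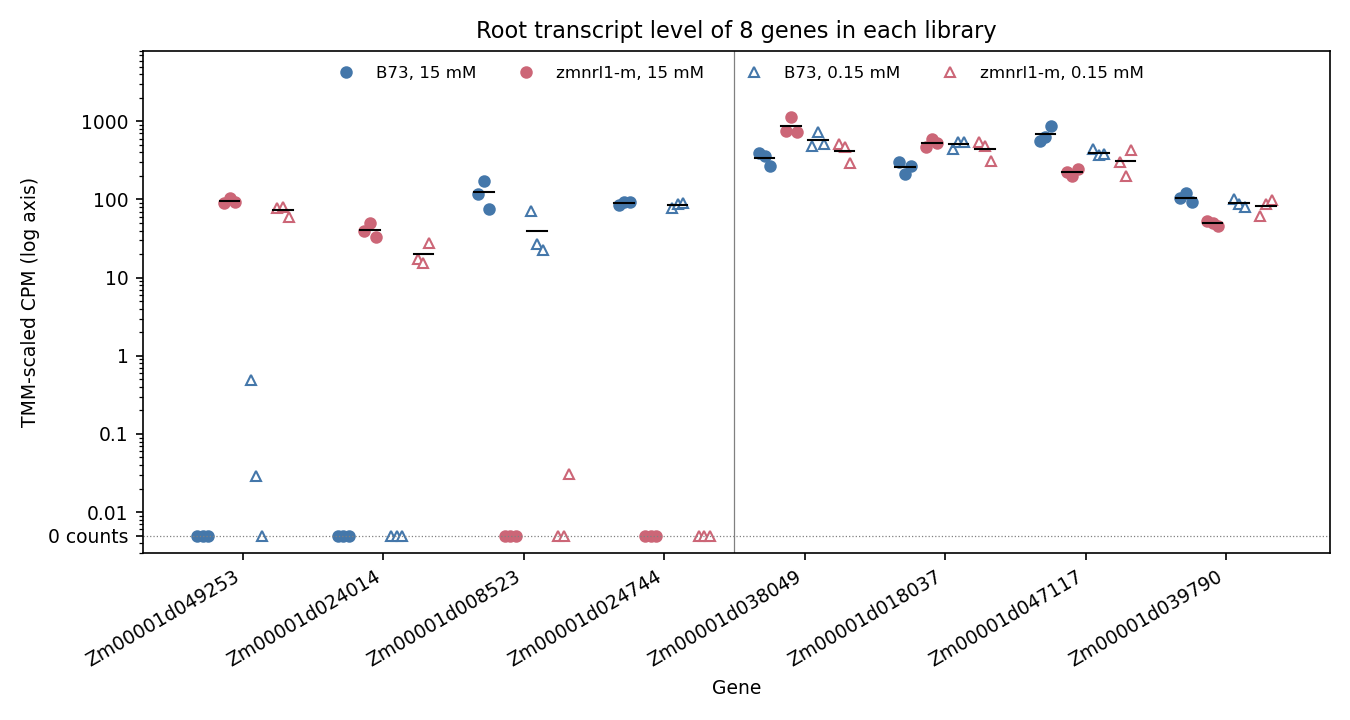
TMM-scaled CPM on a log axis (y) of 8 genes (x) in each library of B73 and zmnrl1-m at 15 mM (filled circles) and 0.15 mM nitrate (open triangles), with group means as black bars where no library was at 0. The 4 genes at the left have counts either in B73 or in zmnrl1-m at 15 mM. The 4 at the right differ between these genotypes at 15 mM and overlap at 0.15 mM.

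Genes with this on-or-off pattern were a small group in both directions. At high nitrate 66 genes had 0 counts in the 3 zmnrl1-m libraries and a mean of at least 5 CPM in B73, with a median of 10.8 CPM there. In the reverse direction, 46 genes had 0 counts in B73 and at least 5 CPM in zmnrl1-m, with a median of 10.0 CPM. A count of 0 allows a level of up to 0.0375 CPM over the 3 zmnrl1-m libraries and 0.0288 CPM over those of B73, where 3 counts are taken as the floor and counting error alone is covered. With up to 3 counts allowed in place of 0, the 2 sets together held 201 genes in place of 112. Without B73 replicate 1, the library that stood apart, they held 142, and the 2 directions were not counted separately there.

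The low-nitrate libraries gave nearly the same picture for these genes. Of the 66 genes silent in zmnrl1-m, 44 had 0 counts and all 66 had at most 3 counts over its 3 low-nitrate libraries, while 61 reached at least 5 CPM in B73. Of the 46 genes silent in B73, 22 had 0 counts and 42 had at most 3 counts in its low-nitrate libraries, and 39 reached at least 5 CPM in zmnrl1-m. In ZmNRL1-OE at high nitrate, 47 of the 66 genes silent in zmnrl1-m reached at least 5 CPM and 12 had 0 counts. Of the 46 genes silent in B73, 5 reached 5 CPM in ZmNRL1-OE and 20 had 0 counts. A mean of 5 CPM is common, with 18589 of the 27134 tested genes reaching it in B73 and 18385 in zmnrl1-m at high nitrate. These numbers cover neither ZmNRL1-OE nor low nitrate, so the counts above are a description.

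The share of large differences varied along the gene order, in much the same windows at both nitrate levels. The count table lists its genes in 9 long runs of rising identifier numbers, and 99.9% of its rows have a higher number than the row before. In B73 RefGen_v4 identifiers were assigned along the chromosomes, so that successive rows are mostly neighbours, but the table holds no coordinates. The 27134 tested genes were divided in this order into 542 windows of 50 genes, with 84 in the last. The share of genes at least 2-fold apart at high nitrate ran from 0% to 42% between windows, with a median of 16% and quartiles of 10% and 24%. In 5 windows it was 0%.

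The window shares were set beside those of the low-nitrate libraries, which did not define the classes. Most genes at least 2-fold apart at high nitrate were also called at low nitrate. Any grouping of genes would thus tend to give similar shares at both levels. A gathering of large differences along the gene order was not tested. In the 148 windows with a share of at most 10% at high nitrate, 9.82% of the genes were at least 2-fold apart at low nitrate. In the 213 windows over 10% and up to 20% it was 16.6%, and in the 181 windows over 20% it was 26.8%, beside 18.2% over all genes. Of the 148 windows with few differences at high nitrate, 2 had a share over 20% at low nitrate. Across the 542 windows the shares at the 2 nitrate levels correlated with Pearson's r = 0.85 and Spearman's rho = 0.835, as a description of windows that share their genes. Windows also differed in expression level, with r = -0.391 between the share and the mean log2 CPM. With genes under 5 CPM left out of each window, the r between nitrate levels was 0.802, and with new windows of 50 such genes it was 0.814.

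Called differences under 2-fold did not follow the large ones. Their share ran from 4% to 46% between windows, with a median of 24%, and was 22.7%, 26.0% and 25.5% in the 3 classes of windows. Its r with the share of large differences was 0.0907, where a gene counted in one share cannot count in the other. Whether small differences gather along the gene order was not tested. The 112 genes at 0 counts in one genotype are themselves among the large differences that define the classes, so their distribution is a description. They were found 10 times in the 148 windows with few large differences, 37 times in the middle class and 65 times in the 181 windows with many. Of the 65, 43 were silent in zmnrl1-m and 22 in B73, with B73 replicate 1 included.

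The longest succession with few large differences ran over 12 windows and 600 genes, from Zm00001d014668 to Zm00001d015929. There 29 genes (4.83%) were at least 2-fold apart at high nitrate and 48 (8%) at low nitrate, and no gene was at 0 in one genotype and at 5 CPM in the other. Called differences under 2-fold made up 20.2% of its genes. The median level over all genes of this stretch, 19.1 CPM, was above that of the stretch described next. The longest succession with many large differences also held 600 genes, from Zm00001d050834 to Zm00001d052047. In it 171 genes (28.5%) were at least 2-fold apart at high nitrate and 156 (26.0%) at low nitrate, at a median level of 11.8 CPM.

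The long runs of identifiers as wholes differed less than the windows. The share at least 2-fold apart lay between 13.0% and 22.3% in the 9 runs. Windows in which ZmNRL1-OE differed from B73 at low nitrate, a comparison with no library in common with the high-nitrate one, matched the windows of zmnrl1-m loosely, with r = 0.275. In the 600-gene stretch with many differences in zmnrl1-m, 10.5% of the genes were at least 2-fold apart between ZmNRL1-OE and B73 at low nitrate, beside 12.7% over all genes.

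**Figure D3:**
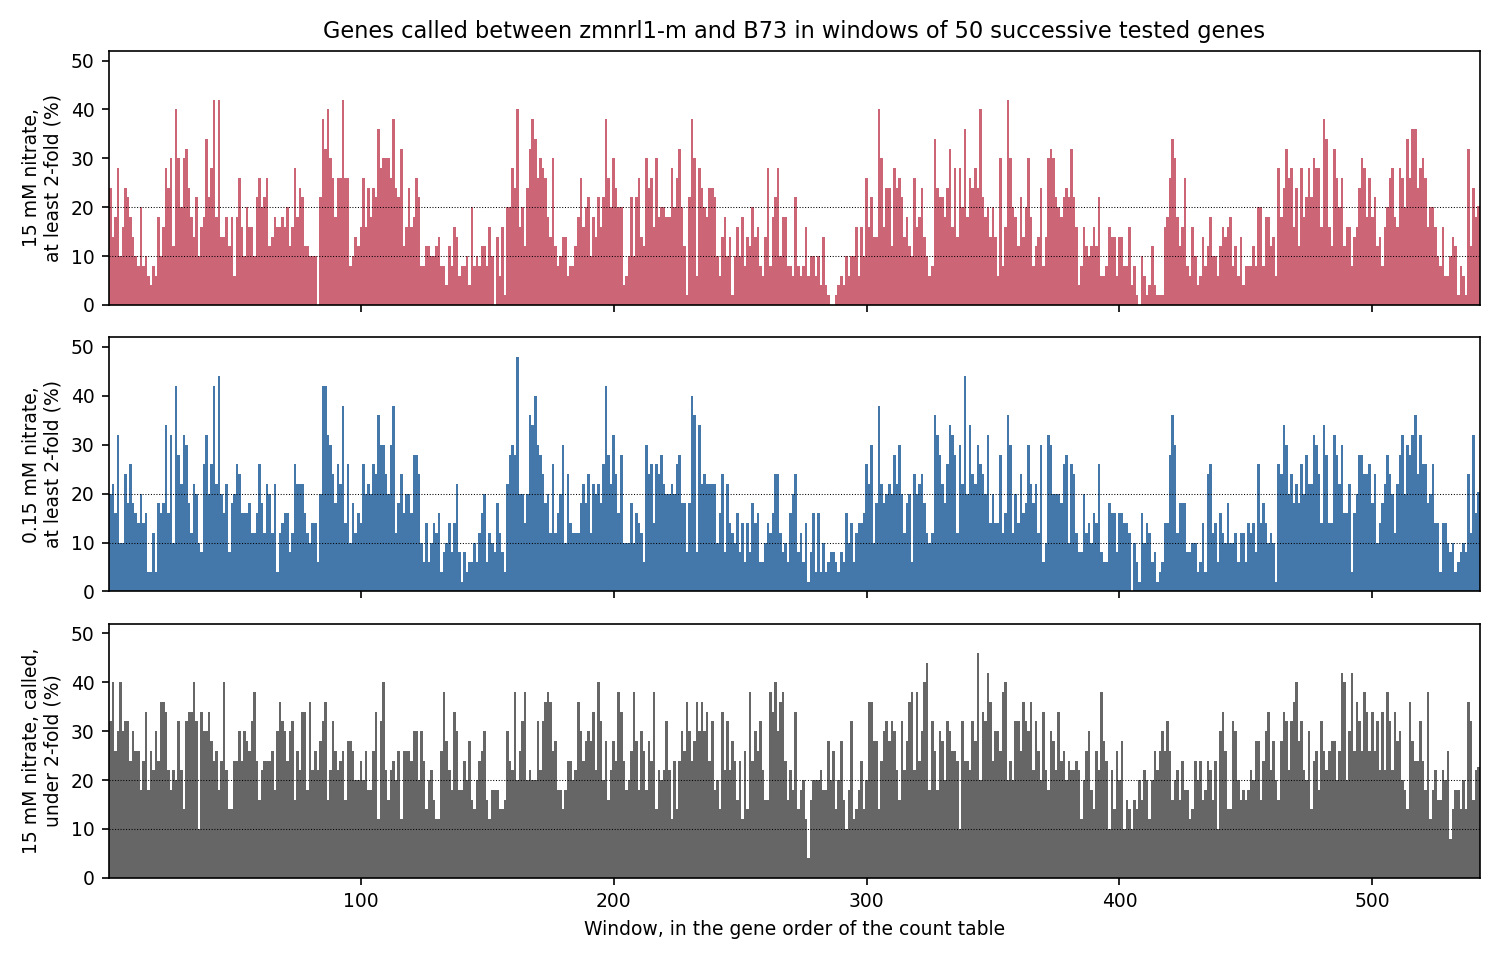
Percent of genes called between zmnrl1-m and B73 (y axes) in 542 windows of 50 successive tested genes in the order of the count table (x axis). Genes at least 2-fold apart at 15 mM (top) and at 0.15 mM nitrate (middle) rise and fall in the same windows, with r = 0.85, while called differences under 2-fold at 15 mM (bottom) do not follow them, with r = 0.0907; dotted lines mark 10% and 20%.

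The genotype difference at high nitrate was compared with that at low nitrate, where 12143 genes (44.8%) were called, 5957 higher (22%) and 6186 lower (22.8%) in zmnrl1-m. Called in the same direction at both levels were 7103 genes, 61.8% of the calls at high and 58.5% of those at low nitrate, and 211 were called in opposite directions. The 2 comparisons share no library, but whether same-numbered libraries of the 2 nitrate levels are linked was not tested. Of the genes at least 2-fold higher at high nitrate, 2032 of 2473 (82.2%) were also called higher at low nitrate, and of those at least 2-fold lower, 1923 of 2249 (85.5%) were also called lower. Of the called differences under 2-fold, 1553 of 3391 higher genes (45.8%) and 1595 of 3383 lower genes (47.1%) were called again in the same direction. Smaller differences are harder to call a second time, and the genes were chosen by their values at high nitrate. Their median log2 fold changes went from 2.34 and -2.03 at high to 2.09 and -1.93 at low nitrate for the large differences, and from 0.47 and -0.52 to 0.23 and -0.28 for the small ones.

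**Figure D4:**
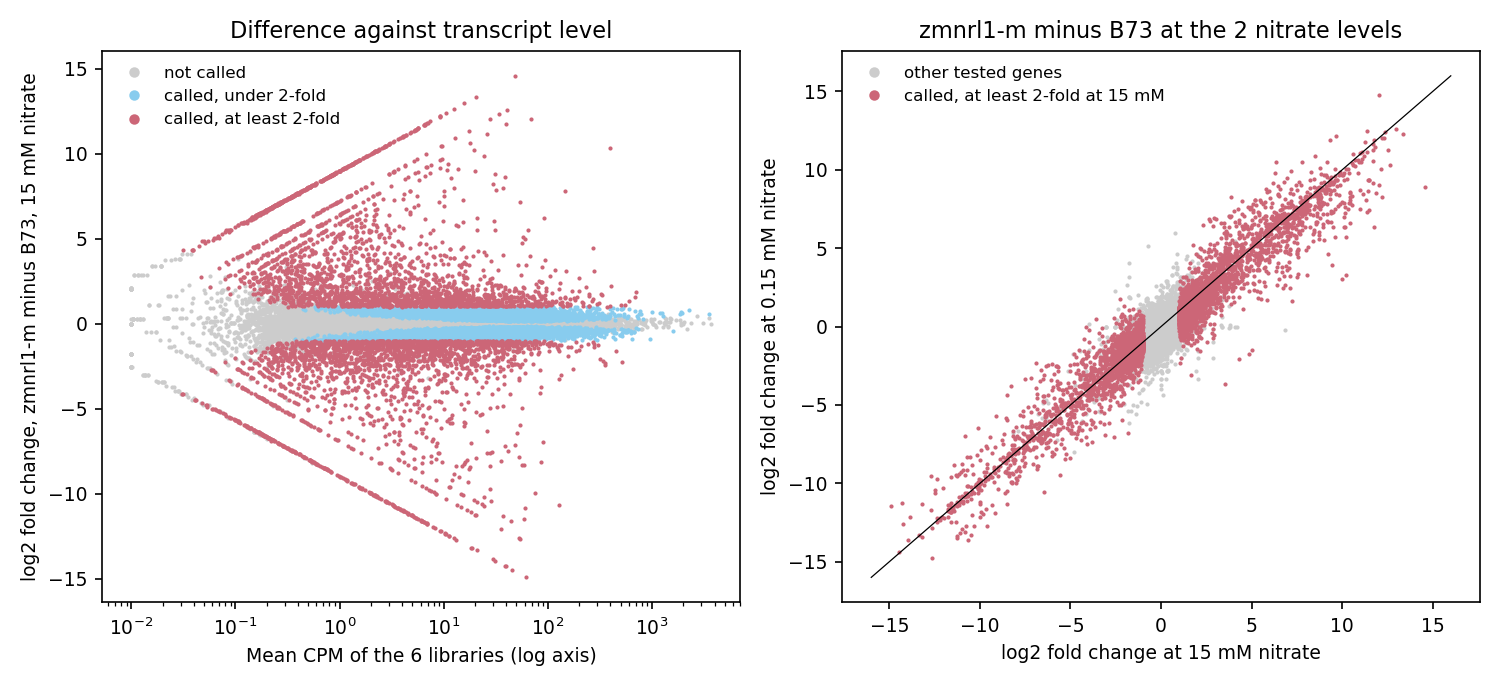
Left, log2 fold change of zmnrl1-m against B73 at 15 mM nitrate (y) by mean CPM of the 6 libraries on a log axis (x), for each tested gene. Right, log2 fold change at 0.15 mM (y) against that at 15 mM nitrate (x), with the line of equality; the slanted rows of points at the left are genes with 0 or few counts in one genotype, and the 4722 genes at least 2-fold apart at 15 mM lie mostly along the line.

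Some genotype differences did depend on nitrate. Tested as the difference between the genotype effects at the 2 levels, 2424 genes (8.93%) were called, of which 1305 were also called between the genotypes at high nitrate. In 754 of these there was a call at high and none at low nitrate. The count of 2424 genes rested on single libraries, with 546 to 3314 when any of the 12 libraries involved was left out. Without B73 replicate 1 at high nitrate the count was 2963. It fell to 744 and 685 without B73 replicate 2 or 3 at low nitrate, and to 706 and 917 without B73 replicate 2 or 3 at high nitrate. It was 546 without zmnrl1-m replicate 3 at low nitrate, and 616 and 899 without zmnrl1-m replicate 2 or 3 at high nitrate. DESeq2 called 4150 genes. The called genes were not gathered in the windows with many large differences, with shares of 8.92%, 9.03% and 8.83% in the 3 classes of windows. Among differences of at least 2-fold at high nitrate with a called difference between nitrate levels and no call at low nitrate, 102 genes were higher and 76 lower in zmnrl1-m.

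The most abundant genes of this kind, 2 in each direction, were taken by a rule added after the values were known. The rule also required no overlap between the genotypes at high nitrate, so the lack of overlap below was fixed by the choice. Zm00001d038049 stood at 397, 356 and 267 CPM in B73 and at 752, 1120 and 727 CPM in zmnrl1-m at high nitrate. All zmnrl1-m libraries were above all B73 libraries, with a log2 fold change of 1.35 ± 0.33 (SE; edgeR adjusted p = 0.00323). At low nitrate the B73 mean was 577 ± 139 CPM and the zmnrl1-m mean 423 ± 115 CPM (SD, n = 3), and the genotypes were not called apart. The genotype effects at the 2 levels differed by 1.80 ± 0.46 on the log2 scale (SE; edgeR adjusted p = 0.029).

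Zm00001d018037 stood at 298, 215 and 266 CPM in B73 and at 473, 597 and 532 CPM in zmnrl1-m at high nitrate. The groups did not overlap, and the log2 fold change was 1.04 ± 0.20 (SE; edgeR adjusted p = 0.00042). At low nitrate it averaged 511 ± 58.3 CPM in B73 and 446 ± 121 CPM in zmnrl1-m (SD, n = 3), and the genotypes were not called apart. The effects differed by 1.24 ± 0.27 (SE; edgeR adjusted p = 0.0184).

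Zm00001d047117 was among the most abundant root transcripts, with 564, 624 and 873 CPM in B73 and 222, 199 and 248 CPM in zmnrl1-m at high nitrate. Every zmnrl1-m library was below every B73 library, and the log2 fold change was -1.62 ± 0.22 (SE; edgeR adjusted p = 1.5e-05). At low nitrate B73 stood at 398 ± 35.3 CPM and zmnrl1-m at 310 ± 118 CPM (SD, n = 3). The effects differed by -1.26 ± 0.30 (SE; edgeR adjusted p = 0.0236).

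Zm00001d039790 stood at 106, 120 and 92.7 CPM in B73 and at 52.3, 50.2 and 46.3 CPM in zmnrl1-m at high nitrate, again with no overlap. The log2 fold change was -1.10 ± 0.18 (SE; edgeR adjusted p = 9.6e-05). At low nitrate it was 89.7 ± 11.4 CPM in B73 and 83.4 ± 19.2 CPM in zmnrl1-m (SD, n = 3). The effects differed by -0.99 ± 0.25 (SE; edgeR adjusted p = 0.027). All 4 genes kept the call between genotypes at high nitrate with any one library left out, but not the call for the difference between nitrate levels. Zm00001d038049 lost the latter without B73 replicate 2 or 3 at either level, zmnrl1-m replicate 3 at low or zmnrl1-m replicate 2 at high nitrate (edgeR adjusted p of 0.0547 to 0.0838). Zm00001d018037 lost it without replicate 2 of either genotype at high nitrate (0.0503 and 0.0509). Zm00001d047117 lost it without B73 replicate 2 or 3 or zmnrl1-m replicate 3 at low nitrate, and without B73 replicate 3 or zmnrl1-m replicate 2 at high nitrate (0.0546 to 0.0648). Zm00001d039790 lost it without the same 3 low-nitrate libraries, and without B73 replicate 2 or zmnrl1-m replicate 2 or 3 at high nitrate (0.0603 to 0.0817).

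Whether nitrate-responsive genes stood at a different level in zmnrl1-m at high nitrate was read from genes defined in other libraries. In ZmNRL1-OE, 881 genes were called and at least 2-fold higher at low than at high nitrate, and 361 at least 2-fold lower. None of those 6 libraries enters the comparison of zmnrl1-m with B73. Of the 881 genes raised by low nitrate, 283 (32.1%) were higher in zmnrl1-m than in B73 at high nitrate, 158 (17.9%) were lower and 440 were not called, beside 21.6% and 20.8% over all genes. Of the 361 genes lowered by low nitrate, 61 (16.9%) were higher, 107 (29.6%) were lower and 193 were not called.

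The median shift of both lists was small beside their response to nitrate, which in ZmNRL1-OE was at least 2-fold by choice. Single genes differed more. At least 2-fold apart at high nitrate were 310 of the 881 genes (201 higher, 109 lower) and 107 of the 361 (38 higher, 69 lower). Over all tested genes the share was 17.4%, and it was larger among weakly expressed genes. The lists were not matched for level. The median log2 fold change at high nitrate was 0.20 for the 881 genes and -0.21 for the 361 genes, beside -0.00277 over all genes. Without B73 replicate 1 the medians were 0.28 and -0.16, and on the log2(FPKM + 1) scale the first was 0.09. The mean log2 CPM of the 881 genes was 1.26, 1.05 and 1.26 in the B73 libraries and 1.27, 1.38 and 1.38 in those of zmnrl1-m, so the nearest libraries of the 2 groups all but touched. At low nitrate it lay between 2.22 and 2.42 in the 6 libraries of both genotypes. The 361 genes averaged 3.14, 3.16 and 3.04 in B73 and 2.81, 2.80 and 2.80 in zmnrl1-m, with a clear gap between groups. The same gap was present at low nitrate, with 1.96 to 2.12 in B73 and 1.65 to 1.72 in zmnrl1-m.

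**Figure D5:**
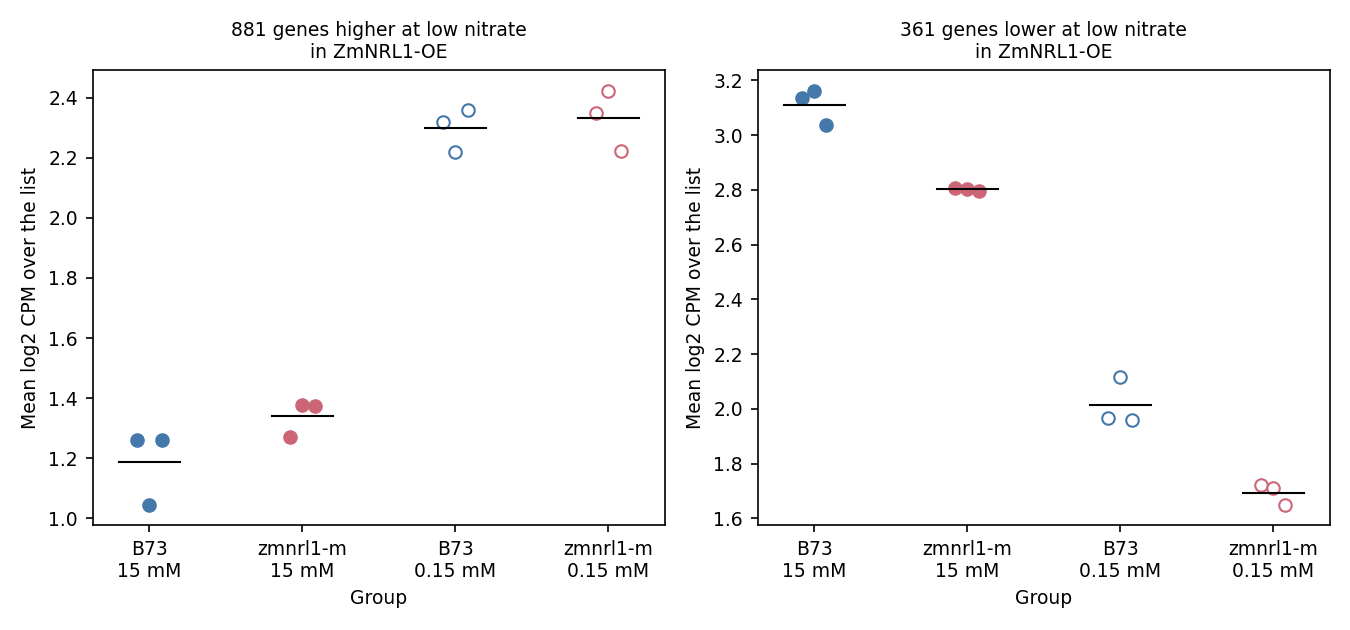
Mean log2 CPM (y axis) over 881 genes higher (left) and 361 genes lower (right) at low nitrate in ZmNRL1-OE, in each library of B73 (blue) and zmnrl1-m (red) at 15 mM (filled) and 0.15 mM nitrate (open), with black bars for group means; the y axes do not start at 0. At 15 mM nitrate the zmnrl1-m libraries stand at 1.27 to 1.38 and 2.80 to 2.81, against 1.05 to 1.26 and 3.04 to 3.16 in B73.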

How the data were processed

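RNA-seq of maize roots, made with an mRNA library kit per the labels, was deposited as 2 tables of 41632 genes for 18 libraries in 6 groups. The deposited counts are raw whole-number reads per gene, and the deposited FPKM values were scaled by the authors for gene length and depth. Per the submitters' processing notes, the build was B73 RefGen_v4 and the tools were featureCounts 2.0.1, HISAT2 2.2.1, Trim Galore 1.18 and bcl2fastq 2.19.1. Their settings for strand and for multiply matching reads are not stated there, so counts of near-identical, overlapping and antisense genes are uncertain. Whether zmnrl1-m reads that differ in sequence from B73 were lost in alignment was not tested.

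Genes were kept with filterByExpr (minimum count 10), which left 27134 genes with 99.97% of the counts. One model with a mean per group was fitted with edgeR 4.0.16 (glmQLFit, glmQLFTest, TMM, R 4.3.3) to all 18 libraries, with 12 residual degrees of freedom and Benjamini-Hochberg adjustment over all genes tested. Standard errors were taken as the absolute log2 fold change divided by the root of F. CPM is TMM-scaled, and log2 CPM has a prior count of 2. The fit was tested on simulated data. Alternatives used DESeq2 1.42.0 and limma 3.58.1.

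Named genes were those called furthest apart, 2 in each direction, that averaged 5 CPM or more in the higher group and had no overlap between groups. For nitrate dependence the rule was a called difference between levels, at least 2-fold at high nitrate, and no call at low nitrate. No overlap between groups at high nitrate and a minimum level were also required, and the highest mean CPM was taken. Windows follow the row order of the count table, in place of the reference gene order planned, since no identifier matched the RefSeq table (49888 genes, NAM-5.0 assembly). The libraries, lists and rules were chosen with earlier results of these data known. The chi-square of replicate pairs, divided by its degrees of freedom, was 7.8 to 25.1, so no library was a duplicate. No sequences are shown, since none could be matched to these identifiers.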

Additional observations from a re-analysis of the deposited data

Results flagged for a closer look

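The difference between zmnrl1-m and B73 itself differed between nitrate levels in 2424 genes by the test of that difference in edgeR. Among the genes named, it did so in Zm00001d038049, by 1.80 on the log2 scale (high minus low nitrate, edgeR adjusted p = 0.029), and in Zm00001d018037, by 1.24 (0.0184). It also did so in Zm00001d047117, by -1.26 (0.0236), and in Zm00001d039790, by -0.99 (0.027). These 4 were picked by that same test, so their values are a description.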

How the results depend on the processing

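The 11496 calls at high nitrate stayed within 9683 to 11907 over 15 alternatives, with 4872 to 6177 genes higher and 4654 to 5730 lower, and the 12143 calls at low nitrate within 9893 to 12454. The share of calls that were higher lay between 49.7% and 52.1% over the scalings, filters and tests, and the median of all genes between -0.0136 and 0.00349. The 4722 genes at least 2-fold apart became 2531 with limma on log2(FPKM + 1), where the pseudocount shrinks low genes, and stayed within 4599 to 4773 with one library left out. The 2424 genes whose genotype effect differed between nitrate levels became 4150 with DESeq2 and 546 to 3314 with one library left out. They numbered 546 and 616 without replicate 3 of zmnrl1-m at low and replicate 2 at high nitrate, and 899 without its replicate 3 at high nitrate. They numbered 744 and 685 without B73 replicates 2 and 3 at low nitrate, and 706 and 917 without those at high nitrate. The cause was not tested. With the replicate number as a block the counts were 11009 at high nitrate and 1569 for the difference between levels. Same-numbered libraries of B73 and zmnrl1-m at high nitrate deviated with r = -0.0872, -0.108 and 0.00334, and no library matched its own number best. The numbers were not taken to pair the samples. Whether same-numbered libraries of a genotype are linked across nitrate levels was not tested. The 112 genes at 0 counts in one genotype became 299 at a limit of 1 CPM, 59 at 10 CPM and 201 with up to 3 counts allowed, as the limits make them. With one library left out they numbered 117 to 142. The r of window shares between nitrate levels stayed within 0.814 to 0.918 over 24 settings, chosen after the data had been examined, with windows of 25 or 100 genes, a 4-fold limit and new windows of genes of at least 5 CPM among them. It was 0.802 when the weaker genes were left out of the existing windows. Every named gene kept its call between genotypes at high nitrate in 15 of 15 settings. For the difference between nitrate levels, Zm00001d038049, Zm00001d018037, Zm00001d047117 and Zm00001d039790 lost the call in 6, 2, 5 and 6 of 21 settings, each with one library left out (adjusted p up to 0.0838, 0.0509, 0.0648 and 0.0817). The effect of depth on the calls was not tested.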
